A study of Mus musculus with 117 samples.

Results

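The Cyp2c cluster of mouse chromosome 19 was examined in hepatocytes of 9 inbred strains as 10 listed genes: Cyp2c29, Cyp2c37, Cyp2c38, Cyp2c39, Cyp2c40, Cyp2c50, Cyp2c54, Cyp2c55, Cyp2c69 and Cyp2c70. All 10 were found among 21631 protein-coding genes of chromosomes 1 to 19 and X. CAST/EiJ, PWK/PhJ and WSB/EiJ are wild-derived strains, the other 6 were C57BL/6J, 129S1/SvImJ, A/J, NOD/ShiLtJ, DBA/2J and NZO/HlLtJ, and no label gives a transgene or treatment. All mice were female and 12 weeks old, and the source tissue was liver. Chromatin immunoprecipitation sequencing of 4 histone marks (H3K4me1, H3K4me3, H3K27ac and H3K27me3) in 3 mice and 1 input library per strain gave 117 libraries. The deposited result is 1 segmentation per strain, which gives each 200-bp bin of the genome 1 of 14 chromatin states, a state being a recurring combination of marks. The mark content of each state is not given in the sources used here, so a state number is only a name. State 14 was the most widespread state and states 1, 2 and 3 were those that hepatocyte genes carried most, so the share of a gene's bins in states 1 to 3 and the share outside state 14 are the main measures. A segmentation combines the 3 mice, so each strain gives 1 value, every SD is over 9 strains, and the sequencing depth is unknown.

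Cytochrome P450 enzymes are haem-containing monooxygenases of the endoplasmic reticulum that insert oxygen into drugs, steroids and fatty acids, with electrons delivered by cytochrome P450 oxidoreductase. The Cyp2c subfamily expanded in rodents by tandem duplication. Its liver enzymes convert arachidonic acid to epoxides and hydroxylated products, metabolise many drugs and, in the case of Cyp2c70, hydroxylate bile acids to muricholic acids. Several members are induced through the nuclear receptors CAR and PXR, and some are expressed more in female than in male liver.

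Upstream sequences are shown for 5 members. Cyp2c70 and Cyp2c29 were the 2 called for state 3 at the start, and the second start of Cyp2c39 held states 1 to 3 in every strain where its outer start did not. Cyp2c40 and Cyp2c69 have upstream sequences that are near copies, and the states of these genes differed between strains. The sequences are the bases just before the annotated gene, or before the second start of Cyp2c39 (chr19:39510572-39510821, plus strand), 5′ to 3′ on the gene's strand, from RefSeq on GRCm38.p6. 9 of the 10 members matched a promoter entry and gave 10 sequences, since Cyp2c39 has a second start. Capitals mark every match, on either strand, to TATAAA (bound by TBP), AGGTCA (a nuclear receptor half-site), TGTTTAC (a FoxA site), CAAAGTCCA (a core of HNF4 sites) and TTCNNNGAA (a STAT site). None of these 5 words overlapped another in the sequences printed.
Cyp2c70: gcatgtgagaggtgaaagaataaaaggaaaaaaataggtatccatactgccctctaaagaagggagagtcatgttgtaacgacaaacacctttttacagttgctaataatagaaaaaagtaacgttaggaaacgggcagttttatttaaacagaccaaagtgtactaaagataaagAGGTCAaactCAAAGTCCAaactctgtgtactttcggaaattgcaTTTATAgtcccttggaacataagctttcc
Cyp2c29: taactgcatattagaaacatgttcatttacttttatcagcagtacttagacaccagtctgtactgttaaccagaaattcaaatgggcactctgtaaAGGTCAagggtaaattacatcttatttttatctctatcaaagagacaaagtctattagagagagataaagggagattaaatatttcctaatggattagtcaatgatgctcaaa
Cyp2c39 second start: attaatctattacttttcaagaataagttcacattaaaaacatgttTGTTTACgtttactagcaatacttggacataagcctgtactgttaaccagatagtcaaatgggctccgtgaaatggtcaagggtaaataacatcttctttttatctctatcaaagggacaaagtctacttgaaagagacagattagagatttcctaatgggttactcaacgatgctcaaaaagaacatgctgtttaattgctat
Cyp2c40: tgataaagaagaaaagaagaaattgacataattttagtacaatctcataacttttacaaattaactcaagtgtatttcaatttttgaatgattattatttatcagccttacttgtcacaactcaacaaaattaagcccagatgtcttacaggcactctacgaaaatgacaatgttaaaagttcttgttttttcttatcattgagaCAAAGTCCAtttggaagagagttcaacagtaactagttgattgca
Cyp2c69: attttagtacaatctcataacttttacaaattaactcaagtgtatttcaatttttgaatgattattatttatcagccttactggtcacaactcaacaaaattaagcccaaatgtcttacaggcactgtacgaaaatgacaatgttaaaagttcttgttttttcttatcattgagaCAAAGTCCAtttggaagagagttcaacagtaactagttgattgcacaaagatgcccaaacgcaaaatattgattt

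The Cyp2c29 sequence was chr19:39286835-39287043 on the plus strand. The Cyp2c70 sequence (chr19:40187287-40187536, minus strand) held AGGTCA at -74 to -69, CAAAGTCCA at -64 to -56 and, read on the other strand, TATAAA at -29 to -24, counting -1 as the base before the start. Cyp2c40 (chr19:39812815-39813064, minus strand) held CAAAGTCCA at -45 to -37, and Cyp2c69 (chr19:39886770-39887019, minus strand) held it at -75 to -67. The upstream sequences of Cyp2c40 and Cyp2c69 were identical at 217 of the 220 positions where they overlapped, or 98.6%, with starts annotated at different places in the shared sequence. Cyp2c37 and Cyp2c50, which are not printed, were 86.3% identical over 249 positions. Among 32851 promoter sequences, CAAAGTCCA occurred in 0.384%, TGTTTAC in 3.17%, TTCNNNGAA in 7.02%, TATAAA in 12.4% and AGGTCA in 14%. These counts, like those of the members, cover the 250 bases before the promoter start. Of the 10 member sequences, 3 held CAAAGTCCA (Cyp2c40, Cyp2c69 and Cyp2c70), 3 held TGTTTAC (Cyp2c38 and both starts of Cyp2c39), 3 held AGGTCA (Cyp2c29, Cyp2c39 and Cyp2c70), 4 held TATAAA (Cyp2c29, Cyp2c38, Cyp2c55 and Cyp2c70) and none held TTCNNNGAA. Several of these sequences are alike, such as those of Cyp2c38 and Cyp2c39, 80.4% identical over 250 positions, so the counts are not of independent sequences. The TATAAA of Cyp2c29 lies past the bases printed, inside the annotated gene, as do that of Cyp2c55 and part of that of Cyp2c38. A match is a description of the letters only.

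The 10 genes lay within 1180 kb, at chr19:39006940-40187286 of GRCm38. Of the 5903 bins of this stretch, between 40.3% (A/J) and 47.1% (NOD/ShiLtJ) were outside state 14. This share includes state 13, which ran from 0.627% of the bins in C57BL/6J and 0.678% in DBA/2J to 5.88% in NOD/ShiLtJ. In the same bins, states 1 to 3 covered 9.42% in A/J, a median of 14.7% and 18.3% in PWK/PhJ. A/J was therefore the lowest of the strains on both measures over the cluster. The map of states along the cluster shows islands at the genes and in some of the stretches between them, and long stretches of state 14. The 106 kb gap between Cyp2c69 and Cyp2c37 had 57.4% ± 13.8 of its bins outside state 14, with 31.5% ± 18.0 in state 13.

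**Figure D1:**
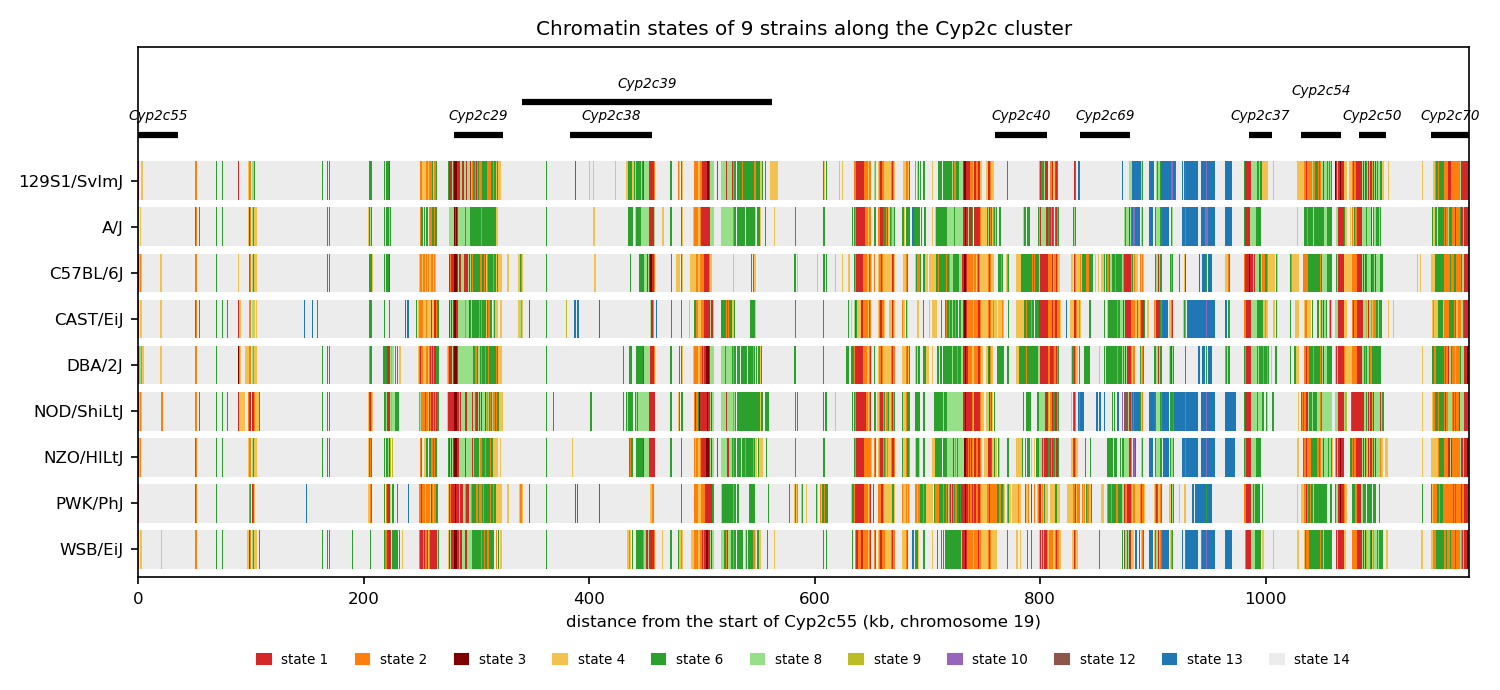
Chromatin state of every 200-bp bin along the Cyp2c cluster in 9 strains, by distance from the start of Cyp2c55 in kb; black bars are the 10 genes and each colour is 1 state. Cyp2c55 is in state 14 over 78.5% to 93.5% of its bins, Cyp2c29 and Cyp2c70 are mostly outside it, and the stretch of Cyp2c40 and Cyp2c69 differs from strain to strain.

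Over the 9 strains, states 1 to 3 covered 54.9% ± 11.9 of Cyp2c70, 29.4% ± 10 of Cyp2c29, 28.2% ± 8.41 of Cyp2c54 and 28.2% ± 8.22 of Cyp2c50, each span being padded by 2 kb on both sides. The middle of the order was held by Cyp2c37 with 19% ± 9.97, Cyp2c40 with 15.4% ± 8.73 and Cyp2c69 with 11.9% ± 10.8. The lowest were Cyp2c39 with 9.26% ± 1.28, Cyp2c55 with 7.56% ± 2.70 and Cyp2c38 with 6.71% ± 2.44. The mean protein-coding gene had 14.7%, with an SD of 0.881 between strains, and the median over all genes was 5.14% against a median of 17.2% over the 10 members, or 29.3% with state 4 added to states 1 to 3. 4 members were higher than the mean gene of the same strain (Cyp2c29, Cyp2c50, Cyp2c54 and Cyp2c70) at an adjusted p under 0.05, by a two-sided exact permutation test that flips the signs of the 9 strain differences, with Benjamini-Hochberg adjustment over all 21631 genes. Of all genes, 28.2% were called higher, so 4 of 10 is not far from the background. 3 members (Cyp2c38, Cyp2c39 and Cyp2c55) were called lower, where 64.6% of all genes were. Cyp2c37, Cyp2c40 and Cyp2c69 were called neither way. Neighbours in the order differed by more than the SD of their difference only for Cyp2c70 against Cyp2c29 (25.5 ± 10.1 percentage points, higher in 9 of 9 strains) and for Cyp2c40 against Cyp2c69 (3.48 ± 3.20 points, higher in 8 of 9).

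**Figure D2:**
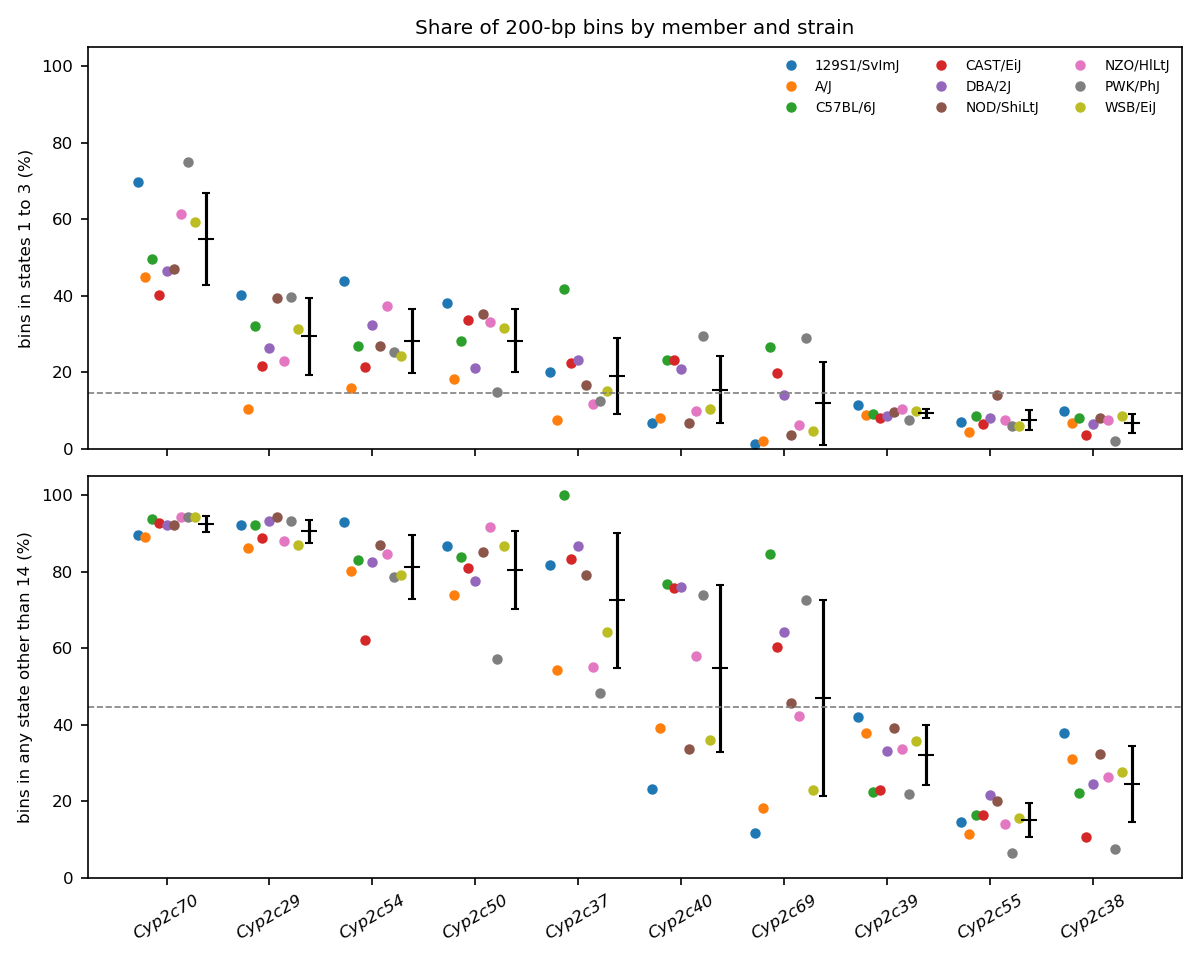
Share of each member's 200-bp bins in states 1 to 3 (top, %) and in any state other than 14 (bottom, %), with 1 point per strain, the mean and SD over 9 strains in black, and the mean gene as a dashed line. Cyp2c70 and Cyp2c29 sit above 86% outside state 14 in every strain, while Cyp2c69 runs from 11.6% to 84.6%.

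The share outside state 14 gave a similar order. Cyp2c70 had 92.4% ± 2.00 of its bins outside state 14, Cyp2c29 90.5% ± 3.05, Cyp2c54 81.1% ± 8.40, Cyp2c50 80.4% ± 10.2 and Cyp2c37 72.5% ± 17.7, and these 5 were higher than the mean gene (44.6%) in all 9 strains, with an adjusted p of 0.00556 for each in the same exact test. Genes called higher made up 35.8% of all genes. Cyp2c40 with 54.7% ± 21.8 and Cyp2c69 with 46.9% ± 25.6 had the widest spread between strains among the members, and were higher than the mean gene in 5 and 4 of 9 strains. Cyp2c39 had 32.1% ± 7.74, Cyp2c38 24.4% ± 9.92 and Cyp2c55 15.2% ± 4.44, each below the mean gene in all 9 strains.

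State 6 covered more of most members than of the mean gene, to differing extents. It was higher than the mean gene in 9 of the 10 members at an adjusted p under 0.05 in the exact sign-flip permutation test, where 17.8% of all genes were. In these 9 it ranged from 7.74% of Cyp2c38 and 12.2% of Cyp2c39 to 30.4% of Cyp2c29 and 31.7% of Cyp2c54 on average, against 3.23% of the mean gene. Cyp2c55 was the exception, with 1.83%. State 8 was higher in 4 members, Cyp2c29, Cyp2c37, Cyp2c50 and Cyp2c54, where 21.5% of all genes were, and it covered 27.8% of Cyp2c50, 23.1% of Cyp2c37 and 22.7% of Cyp2c29 against 3.08% of the mean gene. The largest mean share of state 2 belonged to Cyp2c70, with 33.6% of its bins against 3.51% of the mean gene. States 7 and 11 occurred in no member in any strain, and states 5, 10 and 12 occurred in Cyp2c69 alone among the members. State 13, which covered 13.3% of the mean gene, occurred in Cyp2c38, Cyp2c39 and Cyp2c69.

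Cyp2c70 (chr19:40153361-40187286), the bile acid hydroxylase that makes muricholic acids in mouse liver, carried states 1 to 3 over more of its length than any other member in every strain. Its share was 40.3% in CAST/EiJ, 45% in A/J, 46.6% in DBA/2J, 47.1% in NOD/ShiLtJ, 49.7% in C57BL/6J, 59.2% in WSB/EiJ, 61.3% in NZO/HlLtJ, 69.6% in 129S1/SvImJ and 74.9% in PWK/PhJ. It exceeded the mean gene by 40.1 ± 11.7 percentage points, in 9 of 9 strains, with an adjusted p of 0.00456 in the exact sign-flip permutation test. PWK/PhJ and 129S1/SvImJ stood at the top, and the PWK/PhJ value came with state 2 over 59.2% of the gene, against 21.5% to 39.8% in the other 8 strains. The share outside state 14 hardly varied, from 89.0% in A/J to 94.2% in NZO/HlLtJ, PWK/PhJ and WSB/EiJ. Strains therefore differed in which state other than 14 the gene body held, and little in how much of it was outside state 14. At the start, the unbroken run of states 1 to 3 was between 6 and 7.8 kb long in 8 strains and 16.8 kb long in PWK/PhJ.

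Cyp2c29 (chr19:39287044-39330713), an abundant liver enzyme that epoxidises arachidonic acid and is induced by phenobarbital, had a median of 31.4% of its bins in states 1 to 3. A/J was the lowest with 10.5%, followed by CAST/EiJ with 21.8% and NZO/HlLtJ with 23.0%. The highest were NOD/ShiLtJ with 39.3%, PWK/PhJ with 39.7% and 129S1/SvImJ with 40.2%. The gene was above the mean gene in 8 of 9 strains, A/J being the exception, with a difference of 14.7 ± 9.74 points and an adjusted p of 0.00883 in the exact sign-flip permutation test. Most bins in A/J were still outside state 14, with 46.0% in state 6 and 26.8% in state 8. The share outside state 14 was 86.2%, the lowest of the 9 strains, of which the highest was 94.1% in NOD/ShiLtJ. NOD/ShiLtJ had the reverse balance of these states, with 8.37% in state 6 and 39.3% in state 8.

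**Figure D3:**
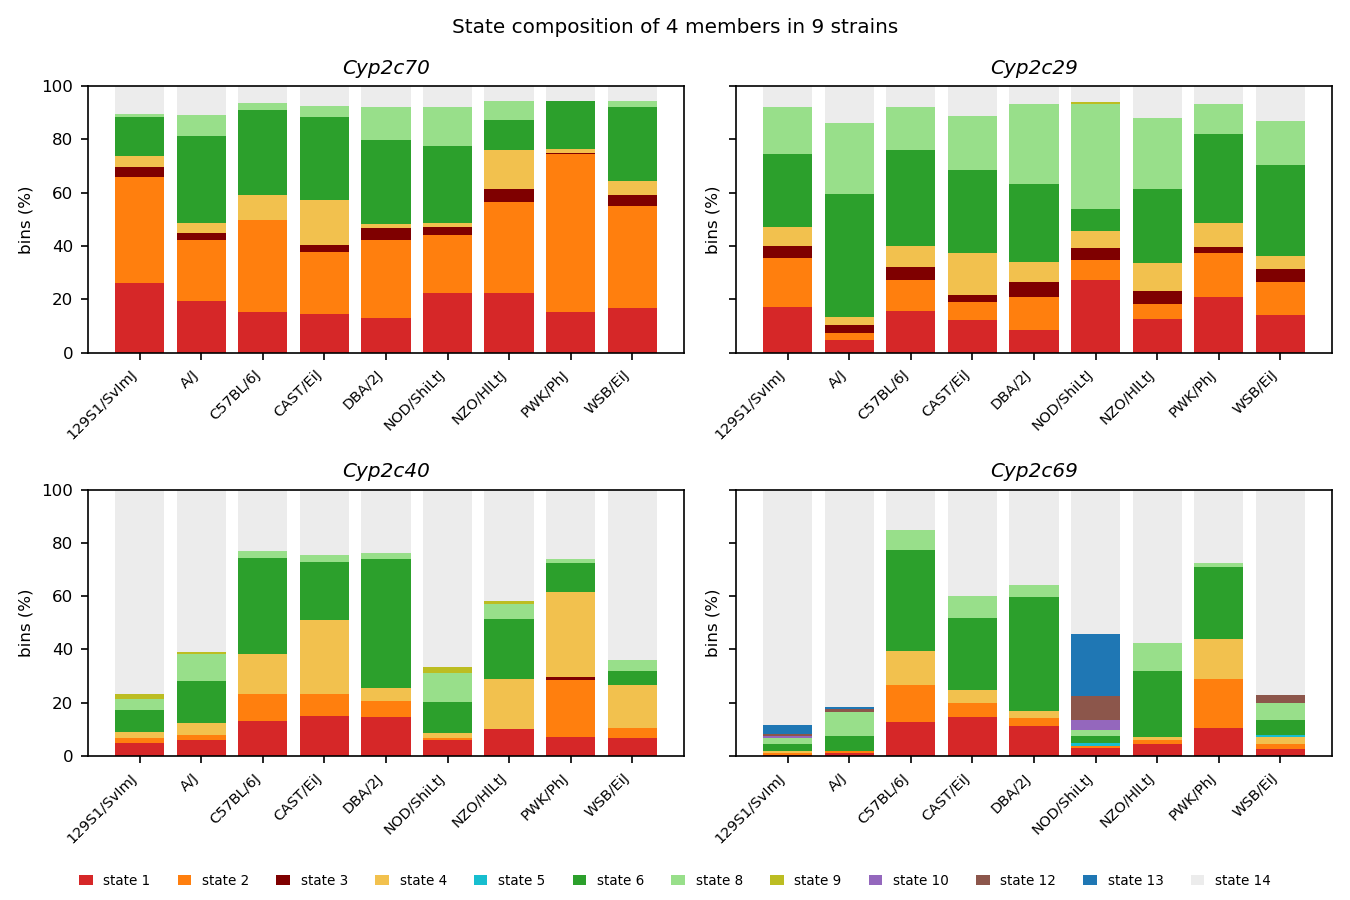
Composition of Cyp2c70, Cyp2c29, Cyp2c40 and Cyp2c69 in each of 9 strains, as the percentage of 200-bp bins in each state; bars reach 100% and grey is state 14. Grey is short in every strain for Cyp2c70 and Cyp2c29, and for Cyp2c40 and Cyp2c69 it is shortest in C57BL/6J, CAST/EiJ, DBA/2J and PWK/PhJ.

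Cyp2c54, Cyp2c50 and Cyp2c37 are neighbours at the far end of the cluster. The first 2 are arachidonic acid epoxygenases, and Cyp2c37 makes a hydroxylated product of arachidonic acid. Cyp2c54 (chr19:40037939-40073845) had 15.9% of its bins in states 1 to 3 in A/J, a median of 26.9% and 43.8% in 129S1/SvImJ. Its difference from the mean gene was 13.5 ± 7.76 points, positive in 9 of 9 strains, with an adjusted p of 0.00456 in the exact sign-flip permutation test. Cyp2c50 (chr19:40089679-40113955) had 14.8% in PWK/PhJ, a median of 31.7% and 38.0% in 129S1/SvImJ, with a difference of 13.5 ± 7.73 points, also positive in 9 of 9 strains at an adjusted p of 0.00456 in the same exact test. The PWK/PhJ value of Cyp2c50 was thus only just above that strain's mean gene. PWK/PhJ also had the lowest share of Cyp2c50 outside state 14, 57%, against 73.9% to 91.5% in the other strains.

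Cyp2c37 (chr19:39992424-40012243) was a member in which 1 strain stood alone in states 1 to 3. C57BL/6J had 41.7% of its bins in states 1 to 3, and the other 8 strains lay between 7.50% (A/J) and 23.3% (DBA/2J). C57BL/6J was also the only strain with all bins of the gene outside state 14. Next came DBA/2J with 86.7%, CAST/EiJ with 83.3%, 129S1/SvImJ with 81.7% and NOD/ShiLtJ with 79.2%. WSB/EiJ had 64.2%, NZO/HlLtJ 55.0%, A/J 54.2% and PWK/PhJ 48.3%. In 17 of the 120 bins C57BL/6J had a state of its own while the other 8 strains shared another state. The build that the submitters' processing notes name, mm10, is the genome of C57BL/6J, and the part of that in this difference was not tested. Nor was it tested for the low values of PWK/PhJ in Cyp2c50, of CAST/EiJ in Cyp2c54, or of both in Cyp2c38.

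Cyp2c40 (chr19:39767073-39812814), a hydroxylase of arachidonic acid, and Cyp2c69 (chr19:39842660-39886769), both known for higher expression in female liver, varied most between strains in the share outside state 14; in the share of states 1 to 3 the largest SD was that of Cyp2c70. Cyp2c69 had 84.6% of its bins outside state 14 in C57BL/6J, 72.6% in PWK/PhJ, 64.3% in DBA/2J, 60.2% in CAST/EiJ, 45.6% in NOD/ShiLtJ, 42.3% in NZO/HlLtJ, 22.8% in WSB/EiJ, 18.3% in A/J and 11.6% in 129S1/SvImJ. Cyp2c40 had 76.8% in C57BL/6J, 76.0% in DBA/2J, 75.6% in CAST/EiJ, 74.0% in PWK/PhJ, 58.0% in NZO/HlLtJ, 39.2% in A/J, 36% in WSB/EiJ, 33.6% in NOD/ShiLtJ and 23.2% in 129S1/SvImJ. The same 4 strains, C57BL/6J, CAST/EiJ, DBA/2J and PWK/PhJ, were the highest for both genes, and 129S1/SvImJ was the lowest for both. They were also the highest in states 1 to 3, with 20.8% to 29.6% of Cyp2c40 against 6.80% to 10.4% in the other 5 strains, and 14.1% to 29.0% of Cyp2c69 against 1.24% to 6.22%. These strains were picked for their values, so no test of the gap is given. The upstream sequences of these 2 genes are nearly identical where they overlap, and the genes themselves were not compared in sequence. Reads that fit both genes cannot be placed on 1 of them. How the authors treated such reads is not given in the sources used here, so levels of Cyp2c40 and Cyp2c69 are uncertain.

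NOD/ShiLtJ differed from the rest in what Cyp2c69 held outside state 14. State 13 covered 23.2% of the gene there, state 12 8.71% and state 10 3.73%, whereas state 13 covered 3.32% in 129S1/SvImJ, 0.415% in A/J and none in the other 6 strains. In NOD/ShiLtJ states 1 to 3 covered 3.73%. In Cyp2c40, PWK/PhJ had the most bins of its own, 33 of 250, with 32.0% of the gene in state 4 and 21.2% in state 2.

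Cyp2c39 (chr19:39347346-39569568), an enzyme that hydroxylates retinoic acid and oxidises arachidonic acid, is annotated over 222 kb, and its span contains all of Cyp2c38. The 389 bins of Cyp2c38 with its padding are 34.4% of the bins of Cyp2c39, so these 2 members are not independent of each other. The last 59 kb, from a second annotated start to the end, are chr19:39510822-39569568. Over these 314 bins, 59.2% ± 20.1 were outside state 14, with 18.5% in C57BL/6J, 42.0% in CAST/EiJ, 44.9% in PWK/PhJ and 65.0% to 80.9% in the other 6 strains. These shares were higher than those of the whole gene in every strain but C57BL/6J, which had 22.4% over the whole gene. C57BL/6J thus had the lowest value here and the highest in Cyp2c37, Cyp2c40 and Cyp2c69. In the last 59 kb, states 1 to 3 covered 13.1% ± 3.01, which differed from the mean gene by -1.59 points, with 2 of 9 strains above it and an unadjusted p of 0.121 in the exact sign-flip permutation test; the call of Cyp2c39 as lower rested on the long span.

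Cyp2c38 (chr19:39389556-39463103), an arachidonic acid epoxygenase on the opposite strand, had 2.06% of its bins in states 1 to 3 in PWK/PhJ, 3.6% in CAST/EiJ and between 6.43% and 9.77% in the other 7 strains. Outside state 14 it had 7.46% in PWK/PhJ, 10.5% in CAST/EiJ and 22.1% to 37.8% elsewhere. Of the gene's bins, state 13 held 3.34% in PWK/PhJ and 4.88% in CAST/EiJ, against 1.03% or less in the other 7 strains. In PWK/PhJ no bin of the gene was in state 1, 6 or 8. At its start all 9 strains had states 1 to 3, with state 2 leading in PWK/PhJ (72.7% of the window) and state 1 in the other 8.

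Cyp2c55 (chr19:39006940-39042690), known from colon and as a gene induced through CAR and PXR, was the member closest to uniform state 14. Its share of states 1 to 3 was 4.50% in A/J, had a median of 7.00% and reached 14% in NOD/ShiLtJ, where state 2 covered 7.50% of the gene against 2.50% or less elsewhere. The difference from the mean gene was -7.16 ± 2.86 points, with 1 of 9 strains above it and an adjusted p of 0.00883 in the exact sign-flip permutation test. With no padding the mean share was 2.90%, so most of it lay in the flanks. All 9 strains had the same state in 158 of its 200 bins, of which 151 were state 14.

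Starts were compared with ends over 1 kb to each side, for the 9 members and 17274 genes in all whose strand the promoter table gives. States 1 to 3 covered 100% of the start window of Cyp2c50 and Cyp2c70 in every strain, 97.0% ± 9.09 of that of Cyp2c38, 94.9% ± 15.2 of Cyp2c29, 93.9% ± 12.0 of Cyp2c37, 87.9% ± 33.1 of Cyp2c40, 80.8% ± 26.7 of Cyp2c69, 67.7% ± 13.7 of Cyp2c55 and 21.2% ± 31.8 of Cyp2c39. End windows held none in 7 of the 9 members and 10.1% in Cyp2c40 and Cyp2c69. Members with more of states 1 to 3 at the start than at the end numbered 8 of 9, all but Cyp2c39, at an adjusted p under 0.05, by the exact sign-flip permutation test with Benjamini-Hochberg adjustment over the 17274 genes, of which 44% were called. So most members carried states 1 to 3 at their starts, including Cyp2c38 and Cyp2c55, whose bodies were mainly state 14.

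State 3 was narrower. Members with more state 3 at the start than at the end were Cyp2c29 and Cyp2c70, 2 of 9, where 40.8% of genes were called. At the Cyp2c29 start, state 3 covered 52.5% ± 6.06, with 54.5% in 8 strains and 36.4% in PWK/PhJ (adjusted p 0.0103, exact sign-flip permutation test). In all 9 strains a state 3 segment began at chr19:39287001, in the bin that holds the start. At the Cyp2c70 start it covered 41.4% ± 21.4, with none in C57BL/6J, 9.09% in PWK/PhJ and 45.5% to 54.5% in the other 7 strains (adjusted p 0.0194, same exact test). Cyp2c55 and Cyp2c69 held no state 3 bin in any strain.

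**Figure D4:**
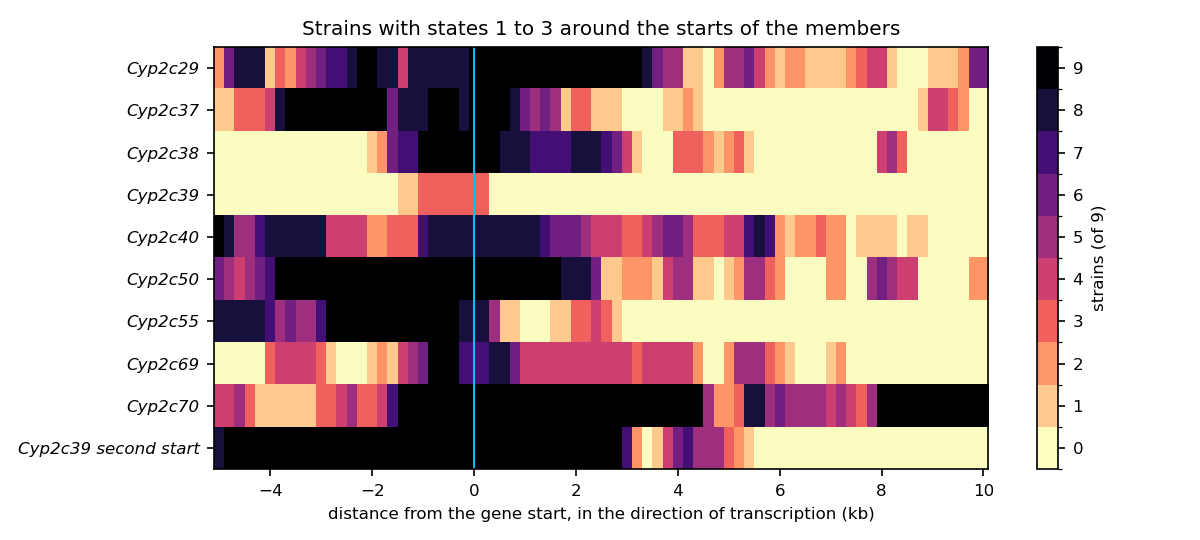
Number of strains, of 9, with state 1, 2 or 3 in each 200-bp bin from 5 kb before to 10 kb after the annotated start of each member with a known strand, in the direction of transcription; the last row is the second start of Cyp2c39. All 9 strains have these states just past the starts of Cyp2c29, Cyp2c37, Cyp2c38, Cyp2c50, Cyp2c70 and the second start of Cyp2c39, and 3 strains have them at the outer start of Cyp2c39.

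Several starts differed between strains in their leading state or in having a run of states 1 to 3. At the outer start of Cyp2c39, C57BL/6J, CAST/EiJ and PWK/PhJ had a run of states 1 to 3 of 1.4, 1.4 and 1.8 kb, with state 2 leading, and the other 6 strains had state 14 throughout the window. At its second start all 9 strains had states 1 to 3 over the whole window, in runs of 8.2 to 9 kb. State 3 was present at the second start in 5 strains, 129S1/SvImJ, DBA/2J, NOD/ShiLtJ, NZO/HlLtJ and WSB/EiJ, with 45.5% to 63.6% of the window, and absent from it in A/J, C57BL/6J, CAST/EiJ and PWK/PhJ. The sequences before the outer and second starts, both with TGTTTAC, were 79.4% identical over 252 aligned positions.

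At the start of Cyp2c40, state 4 filled the window in PWK/PhJ, while state 1 led in the other 8 strains. The run of states 1 to 3 across that start was 17 kb in CAST/EiJ, 11.8 kb in C57BL/6J, 7.6 kb in DBA/2J and 2.4 to 3.6 kb in 5 strains, so 3 of the 4 strains with much of the gene outside state 14 had long runs and PWK/PhJ had none. Cyp2c69 had runs of 4.6 to 6.6 kb in C57BL/6J, CAST/EiJ, DBA/2J and PWK/PhJ, and of 1.8 to 2.2 kb in NOD/ShiLtJ, NZO/HlLtJ and WSB/EiJ. State 8 led at its start in 129S1/SvImJ and A/J, where no run crossed it. At the start of Cyp2c55, A/J had no run and state 2 led in WSB/EiJ. Cyp2c54 has no strand or promoter entry in the tables used, but states 1 to 3 filled the window at its right end in all 9 strains and were absent at its left end.

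Each pair of strains was also compared bin by bin, as the percentage of a gene's bins whose state differed, averaged over 36 pairs. Cyp2c40 had 53.6% and Cyp2c69 53.3%, followed by Cyp2c50 with 47.2%, Cyp2c37 with 46.9%, Cyp2c54 with 40.5%, Cyp2c29 with 38.6% and Cyp2c70 with 37.9%. Cyp2c39 had 24.5%, Cyp2c38 22.1% and Cyp2c55 11.4%. The median over members was 39.5%, against 19.7% over all protein-coding genes, and 9 of the 10 members were above the latter. The values of Cyp2c40 and Cyp2c69 were at the 99.1 percentile of all genes for both. Bins in state 14 in every strain cannot differ, and they numbered 151 of 200 in Cyp2c55 and 198 of 389 in Cyp2c38, against 12 of 250 in Cyp2c40 and 17 of 241 in Cyp2c69. The members also had more bins outside state 14, with a median share of 63.6% against 38.0% over all genes. The part of this in their higher divergence was not tested. The farthest pair reached 86.7% for Cyp2c37 (C57BL/6J and PWK/PhJ) and 85.9% for Cyp2c69 (C57BL/6J and NOD/ShiLtJ), and the closest pair differed in 5.66% of bins for Cyp2c38 (DBA/2J and NZO/HlLtJ).

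CAST/EiJ, PWK/PhJ and WSB/EiJ are wild-derived strains, and their values were set against the other 6. In the share of states 1 to 3, no member had values that did not overlap between the groups, in either direction; of all genes, 0.777% were higher and 1.1% lower in all 3. In the share outside state 14, Cyp2c54 was lower in all 3, with 62.2% in CAST/EiJ, 78.6% in PWK/PhJ and 79.1% in WSB/EiJ against 80.1% to 93.0% in the others. Genes that were lower in this way made up 2.76% and genes that were higher 0.559% of all genes. The part of the C57BL/6J build in these differences was not tested. The means were 73.3% and 85.1%, with an exact two-sided permutation p of 0.0119 over 84 splits, the smallest this design can give, and an adjusted p of 0.510. No gene passed an adjusted p of 0.05 in either measure; at an unadjusted p under 0.05 there were 975 genes for states 1 to 3, with no member, and 1522 genes for the share outside state 14, with Cyp2c54 as the only member. Without A/J, 2 members (Cyp2c54 and Cyp2c55) were lower without overlap in states 1 to 3, where 1.92% of all genes were. Without WSB/EiJ, 2 members that share bins (Cyp2c38 and Cyp2c39) were, where 4.05% of all genes were, and Cyp2c38 joined Cyp2c54 in the share outside state 14, where 10.3% were. A split with fewer strains gives such calls more often. In Cyp2c40 and Cyp2c69, CAST/EiJ and PWK/PhJ were among the high strains and WSB/EiJ was among the low ones.

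The other Cyp2c genes looked at were Cyp2c23, Cyp2c65, Cyp2c66, Cyp2c67 and Cyp2c68. Cyp2c44 is a synonym of Cyp2c23 in the table. 2 of the 5 were higher than the mean gene in states 1 to 3, where 28.2% of all genes were. They were Cyp2c23, an epoxygenase that lies outside the cluster, with 60.3% ± 11.3, and Cyp2c67 with 19.9% ± 4.83. 2 were lower, where 64.6% of all genes were: Cyp2c65 with 0.721% ± 0.764 and Cyp2c66 with 0% in every strain. Both lie between Cyp2c55 and Cyp2c29. Cyp2c68 had 15.5% ± 10.8 and was called neither way. In Cyp2c68, PWK/PhJ had 43.6% and the other 8 strains 8.16% to 17.4%. PWK/PhJ was likewise the highest strain for Cyp2c23 (87.3%), Cyp2c67 (29.3%), Cyp2c40, Cyp2c69 and Cyp2c70. It was the lowest strain on the same measure for Cyp2c38 (2.06%), Cyp2c39 (7.42%) and Cyp2c50 (14.8%). The part of the C57BL/6J build and of reads that fit several genes in these values was not tested.

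Of 13 genes for regulators of Cyp2c expression, 12 were higher than the mean gene in states 1 to 3, where 28.2% of all genes were. Cebpa and Foxa2, transcription factors of hepatocyte identity, had 100% in every strain, and Rxra, the partner of CAR and PXR, had 99.3% ± 0.681. The lowest were Nr1i2, which encodes PXR, with 59.1% ± 5.19, Nr3c1, the glucocorticoid receptor, with 46.7% ± 5.25, and Cux2, a repressor known from female liver, with 16.6% ± 4.18, which was not called. All 6 partner and later enzymes were higher, against the same 28.2% of all genes. The lowest were Ephx2, which hydrolyses the epoxides that Cyp2c enzymes make, with 59.1% ± 12.3, Ephx1 with 67.6% ± 1.54 and Ugt1a1 with 71.7% ± 15.6. Por, the electron donor, had 79.9% ± 2.96, Cyb5r3 81.0% ± 3.04 and Cyb5a 99.5% ± 1.21. Every one of these 6 had a higher mean than Cyp2c70. Divergence between strain pairs had a median of 22.4% over the regulators and 24.6% over the partners, against 39.5% over the members. The list medians describe these genes only. Both lists include hepatocyte genes, and states 1 to 3 were used because hepatocyte genes carry them, so these high counts say little.

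All 6 hepatocyte markers were higher than the mean gene, from 53.0% to 100% in states 1 to 3, where 28.2% of all genes were higher. This is no check of the hepatocyte label, since these states were used because hepatocyte genes carry them. Markers of other cell types were lower for the most part, as were 64.6% of all genes. None was higher than the mean gene among 4 endothelial, 3 bile duct, 3 stellate and 3 intestinal genes. Of 5 Kupffer cell and leukocyte markers Cd68 alone was, with 64.8% ± 14.4, while Clec4f was at 0%. Endothelial markers ranged from 0% (Kdr) and 0.378% (Cdh5) to 8.08% (Pecam1) and 14.8% (Stab2), and bile duct markers from 0% (Krt19) and 0.229% (Epcam) to 19.7% (Sox9). Stab2 and Sox9 were called neither way, and the 3 stellate markers (Lrat, Des and Col1a1) were at 0% in every strain. What such markers add to the members' states was not tested.

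The genes whose state composition was most like a member's were found by the mean distance over the 9 strains, counted as the percentage points of bins that would have to change state. Closest to Cyp2c55 were Slc26a6, Wwox and Atp6v0a4, at 6.29, 6.32 and 6.46 points. Cyp2c39 was nearest to Stxbp6 (8.66 points), Snx2 and Gbf1, and Cyp2c38 to Rsph4a (10.7 points), Zc3h13 and Arfgef1. For Cyp2c70 the nearest were Chka, at 14.6 points, Gcnt2 and Fam107b, and for Cyp2c29 Crkl, at 17.6 points, followed by Chtf8 and Derpc with the same bins. The nearest gene lay at 20.1 points from Cyp2c54 (Hibadh, then Fbxo8 and Ythdf1), 21.8 from Cyp2c40 (Znrf1, then Cdkl1 and Pank2) and 22.2 from Cyp2c50 (Atp5l, then Ccnl1 and Pex13). It lay at 24.8 points from Cyp2c37 (Pex13, then Ccnl1 and Ythdf1) and 27.4 from Cyp2c69 (Nhlrc2, then Raph1 and Cert1). The distance is taken strain by strain, so differences between strains in either gene add to it.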

How the data were processed

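The authors deposited 1 segmentation per strain, whose values are categories: the number of 1 of 14 chromatin states per interval. Per the submitters' processing notes, the build was mm10 and FastQC 0.11.5 and MACS 1.4.2 were used; the aligner and segmentation tool are not given in the sources used here. Intervals were written as 200-bp bins, and gene spans from RefSeq GRCm38.p6, padded by 2 kb, gave shares per gene and strain. Each gene was compared with the mean gene of the same strain by a two-sided exact permutation test that flips signs over 9 strains (512 patterns, smallest p 0.0039), and 3 wild-derived strains with 6 others by complete separation and the exact permutation p; Benjamini-Hochberg adjustment ran over all genes. The strains share ancestry, and p-values measure only the spread between strains.

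The members and gene lists were chosen with earlier results of these data known. All 10 members are named; of the other lists, the 3 highest and 3 lowest genes are named, and of like genes the nearest 3. A listed regulator and its motif are not reported here. The tests of the share outside state 14, states 6 and 8, states 1 to 3 at starts, the second start of Cyp2c39 and the pseudogenes were chosen after values had been seen. Code (Python 3.11.15 with Biopython 1.88, matplotlib 3.10.9, pandas 2.3.3, numpy 2.4.6 and scipy 1.17.1) was tested on simulated data.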

Additional observations from a re-analysis of the deposited data

Results flagged for a closer look

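In 3 of 20 sets of 9 strain values (2 measures in each of 10 members), 1 strain stood far from the rest, with a gap to its neighbour, as a share of the whole range, past Dixon's limit; chance gives about 1 such set. For Cyp2c37 the share in states 1 to 3 was 41.7% in C57BL/6J, with a gap of 0.537 of the range. In Cyp2c54 the share outside state 14 was 62.2% in CAST/EiJ, with a gap of 0.532. Cyp2c55 had 14% of its bins in states 1 to 3 in NOD/ShiLtJ, with a gap of 0.579. The cause of these values was not tested.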

How the results depend on the processing

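No paired analysis was possible because the segmentations combine the mice of a strain, so no column carries a replicate number. The number of members above the mean gene was 4 or 5 in states 1 to 3, 5 outside state 14, 8 or 9 in state 6 and 4 to 6 in state 8 under every alternative run for them; that with more state 3 at the start was 2 throughout, and that with more of states 1 to 3 at the start 7 or 8. With states 1 to 4 in place of 1 to 3, the median share over members moved from 17.2% to 29.3%, and on marked bins alone the median divergence moved from 39.5% to 45.7%. No value over all genes on marked bins is given beside it. Leaving out each strain in turn gave 0 to 2 members without overlap in states 1 to 3 (Cyp2c54 and Cyp2c55 lower without A/J, as 1.92% of all genes; Cyp2c38 and Cyp2c39 lower without WSB/EiJ, as 4.05%) and 1 to 2 outside state 14 (also Cyp2c38 without WSB/EiJ, where 10.3% of all genes were lower). Of 41 alternatives for the shares of single members, leave-one-out aside, 8 moved the share by more than the SD between strains. Adding state 4 gave 29.2% for Cyp2c40, 29.4% for Cyp2c37, 13.6% for Cyp2c39, 12.6% for Cyp2c55 and 9.54% for Cyp2c38; Cyp2c55 was 2.90% with no padding and 11.9% with 5 kb, and Cyp2c39 was 13.1% from its second start. The depth is unknown, so its limits cannot be stated.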

Other observations

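RefSeq annotates 3 Cyp2c pseudogenes inside the cluster, looked at after the map of states had been seen, and their states differed from each other. Cyp2c71-ps (chr19:39928044-39952861), between Cyp2c69 and Cyp2c37, was mostly state 13, with 81.6% of its 125 bins in NOD/ShiLtJ, 67.2% in A/J, 65.6% in NZO/HlLtJ, 64.0% in CAST/EiJ, 61.6% in 129S1/SvImJ, 57.6% in WSB/EiJ and 40.8% in PWK/PhJ, against 16.8% in DBA/2J and 13.6% in C57BL/6J. State 13 also covered 31.5% ± 18.0 of the whole 106 kb gap between Cyp2c69 and Cyp2c37. NOD/ShiLtJ, the strain with the most state 13 in this gap (54.9%), was the strain with state 13 over 23.2% of Cyp2c69.

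Cyp2c53-ps (chr19:39229254-39274737), beside Cyp2c29, had 23.1% ± 9.88 of its bins in states 1 to 3, from 8.77% in NZO/HlLtJ to 37.7% in WSB/EiJ. Cyp2c72-ps (chr19:39347419-39360081), which begins just inside the outer start of Cyp2c39, had 3.82% ± 4.82 outside state 14. These regions resemble the members in sequence, and the part of reads that fit several of them was not tested.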
